A study of Mus musculus with 11 samples.

Results

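Prss41, Nutm1, Zcwpw2 and Slco5a1 are 4 genes of mouse embryonic stem cells. Their mean RNA levels differed between untreated cells and cells given auxin to degrade the chromatin protein CTCF. Their means stood in between when CTCF was put back, but not always clearly. With FL CTCF, Slco5a1 libraries lay inside the untreated range. With H373R CTCF, Prss41 was not clearly apart from its level in auxin-treated cells that had no CTCF put back. The genes are 4 of 55228 gene symbols in the count and TPM tables of the series. All 4 were among the 16420 genes with enough counts to be tested. They were listed by symbol because of their levels in the same 4 groups of libraries that are described here. Their levels and differences are therefore given as a description, with standard errors and no test. The filter on low counts asked for 0.475 CPM in at least 2 libraries. Prss41 reached it in the EV untreated and FL libraries only, Nutm1 in 1 of 3 EV untreated and all auxin libraries, and Zcwpw2 and Slco5a1 in all 11.

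CTCF is a zinc finger protein that binds a long asymmetric DNA motif and halts the cohesin complex as it extrudes chromatin loops, which sets the borders of chromosome domains. It also sits at many promoters, and its removal in stem cells changes the RNA of some genes in both directions. Of the 4 genes, Prss41 (testis serine protease 1) encodes a membrane-anchored trypsin-like protease of the testis. Nutm1 encodes a protein of male germ cells that recruits the acetyltransferase p300, and it is the gene that NUT carcinoma is named for. Zcwpw2 encodes a protein with CW and PWWP domains, which read methylated histones, and Slco5a1 encodes a member of the organic anion transporter family of solute carriers.

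RNA was sequenced from EN52.9.1 mouse embryonic stem cells, a line in which endogenous CTCF carries an auxin-inducible degron (CTCF-AID). All 4 groups carry this degron, so no group had auxin without it. Between EV auxin and EV untreated cells, an effect of auxin itself and the loss of CTCF cannot be told apart. EV untreated cells had no auxin and gave 3 libraries, and EV auxin cells, labelled as depleted of endogenous CTCF, gave 2. FL auxin cells had FL CTCF put back and gave 3 libraries, and H373R auxin cells had CTCF with the H373R substitution put back and also gave 3, under titles that read ZF4. Auxin was the analogue indole-3-acetic acid at 500 µM, and its duration is not given in the sources used here. All libraries come from 1 cell line, and nothing states whether replicates are separate cultures, so the errors measure only the spread between these libraries, which may be technical.

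The total count per library ran from 13465241 to 29902246. EV untreated replicate 1, the deepest library, stood apart from its group by a chi-square on counts, which grows with depth. Per degree of freedom it was 15.5 and 14.8 against the other 2 untreated libraries, where other pairs within a group had 1.93 to 4.71. By Pearson r of log2 CPM it stood less apart, with 0.9925 and 0.9937, beside 0.9929 to 0.9943 between FL libraries. Differences and return fractions that rest on EV untreated replicate 1 are given for each of the 4 genes with and without it. The degron acts on the protein, and Ctcf RNA (325 ± 27.5, 361 ± 3.63, 337 ± 11.3 and 321 ± 13 CPM, SD, n = 3, 2, 3 and 3 in EV untreated, EV auxin, FL and H373R libraries) gave no check of the labels. The FL and H373R means were not above that of EV auxin, and whether RNA of the CTCF put back is counted as Ctcf is not stated. The summed level of 10 embryonic stem cell markers was 5882 to 6415 CPM in every library, and all 10 were among the tested genes.

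All 4 genes lie on the minus strand. In GRCm38 with GENCODE M21, Prss41 spans chr17:23836785-23844172 with 4 annotated transcripts, and Nutm1 spans chr2:112247948-112259291 with 1. Zcwpw2 spans chr9:117876000-118040259 with 5 transcripts and is classed as a transcribed unprocessed pseudogene there, but as protein coding in RefSeq. Slco5a1 spans chr1:12866549-12992650 with 8 transcripts. Prss41 overlaps Prss32 on the opposite strand, and 233 bases of its 2642 exon bases lie within Prss32. Whether the counting used strand is not stated, so reads of both genes cannot be told apart there. Prss32 itself had 3, 9 and 4 counts in the untreated libraries and 0 to 2 in the others. The 2 genes that overlap Zcwpw2 in GENCODE M21, Gm26614 and Gm22008, had 0 counts in every library. In RefSeq the span of Zcwpw2 also overlaps that of Azi2, which had 47.9 CPM in EV untreated and 51.3 CPM in EV auxin libraries. The annotation used for counting is not given, so how reads from that overlap were assigned is not known. The TPM imply nearly equal lengths for Zcwpw2 and Nutm1. In EV untreated replicate 1, 20 counts gave 0.683 TPM for Zcwpw2 and 13 counts gave 0.435 TPM for Nutm1. Their exon bases in GENCODE M21 are 2917 and 3731, so the form of Zcwpw2 that was counted appears to differ from the one described here.

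The promoter windows of Prss41 and Zcwpw2 are printed here because auxin removes a factor that binds DNA at such sites, and because the levels of these genes lay on opposite sides of the untreated level. Both come from RefSeq on GRCm38.p6, minus strand, and run from 250 bases before the transcript start to 50 after it. Capitals mark a match to the core of the CTCF motif, searched on both strands as CC, 3 unspecified bases, AG, 2 unspecified bases and GGC. The promoter table held these 2 of the 4 genes.
Prss41, chr17:23844107-23844406: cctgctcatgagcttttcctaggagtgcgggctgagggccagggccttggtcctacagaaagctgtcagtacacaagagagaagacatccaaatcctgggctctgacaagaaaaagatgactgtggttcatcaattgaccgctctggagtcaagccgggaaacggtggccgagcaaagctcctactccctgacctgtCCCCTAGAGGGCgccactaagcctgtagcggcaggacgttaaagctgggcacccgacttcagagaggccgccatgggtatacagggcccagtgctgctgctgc
Zcwpw2, chr9:118040810-118041109: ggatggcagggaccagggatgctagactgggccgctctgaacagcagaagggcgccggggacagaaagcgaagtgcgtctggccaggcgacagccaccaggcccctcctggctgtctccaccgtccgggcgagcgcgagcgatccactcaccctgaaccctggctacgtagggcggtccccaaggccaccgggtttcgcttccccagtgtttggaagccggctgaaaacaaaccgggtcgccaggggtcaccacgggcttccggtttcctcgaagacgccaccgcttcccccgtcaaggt
The Prss41 window held 1 match, CCCCTAGAGGGC on the printed strand, at positions -53 to -42 from the transcript start. The start of Prss41 differs between annotations, at 23844219 for its RefSeq span and 23844172 in GENCODE M21, both upstream of the start used for this window. The match lies inside that RefSeq span and upstream of the GENCODE start. The whole window also lies within the span of Prss32 on the opposite strand (chr17:23843855-23859779). The Zcwpw2 window held none. Of 32851 promoter windows of the same length, 2828 (8.61%) held at least 1 match. The G-quadruplex motif, searched as 4 runs of GGG or longer set 1 to 7 bases apart on both strands, was found in neither window and in 18.6% of all windows. The Prss41 window was 57.3% GC with 10 CpG and the Zcwpw2 window 66.3% GC with 25 CpG, against a median of 52.7% and 7 CpG over all windows. No binding was measured in these libraries, so a match is a description of the letters only.

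Prss41 RNA was nearly absent after auxin. In EV untreated libraries it had 5.53, 6.31 and 6.32 CPM (counts scaled to library size with TMM factors), from 166, 129 and 172 counts. In EV auxin libraries it had 0.171 and 0.0830 CPM, from 3 and 2 counts. In FL libraries it stood at 1.57, 1.52 and 1.89 CPM, and in H373R libraries at 0.172, 0.330 and 0.308 CPM, from 4, 7 and 8 counts.
The untreated and FL libraries were each separate from all others, and the lowest H373R library lay next to the higher EV auxin library. The group means were 6.05 ± 0.456, 0.127 ± 0.0623, 1.66 ± 0.198 and 0.270 ± 0.0855 CPM (SD, n = 3, 2, 3 and 3) in EV untreated, EV auxin, FL and H373R libraries. With 5 counts in all, the EV auxin level allows only a wide ratio. From summed counts over TMM-scaled library sizes, Prss41 was 50.04 times as high in EV untreated as in EV auxin libraries (95% exact interval 21.3 to 155, counting error only). FL was 13.9 times as high as EV auxin (5.76 to 44.0), and H373R was 2.25 times as high (0.811 to 7.69), an interval that includes no difference. Between the groups with more counts, H373R lay below FL by 2.61 ± 0.27 (SE) on the log2 scale. FL lay 1.85 ± 0.15 and H373R 4.45 ± 0.20 log2 units below EV untreated. Without EV untreated replicate 1 the ratio of EV untreated to EV auxin was 52.6 (22.3 to 163), and FL and H373R lay 1.91 and 4.53 log2 units below EV untreated.

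Nutm1 showed the opposite direction. It had 0.433, 0.392 and 0.661 CPM in EV untreated libraries, from 13, 8 and 18 counts. In EV auxin libraries it had 5.93 and 4.86 CPM, from 104 and 117 counts. FL libraries had 2.10, 2.35 and 2.29 CPM, and H373R libraries 4.47, 3.16 and 4.08 CPM.
No library of any group overlapped another group, and the order from high to low was EV auxin, H373R, FL and EV untreated. The means were 0.495 ± 0.145, 5.39 ± 0.760, 2.25 ± 0.133 and 3.90 ± 0.674 CPM (SD, n = 3, 2, 3 and 3) in EV untreated, EV auxin, FL and H373R libraries. The fitted log2 fold change of EV auxin over EV untreated was 3.40 ± 0.22 (SE), which is 10.5-fold. FL lay 1.25 ± 0.18 and H373R 0.44 ± 0.16 log2 units below EV auxin. H373R exceeded FL by 0.81 ± 0.17, and FL remained 2.14 ± 0.25 and H373R 2.95 ± 0.21 log2 units above EV untreated. Without EV untreated replicate 1 the differences of EV auxin, FL and H373R from EV untreated were 3.26, 2.02 and 2.83.

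Zcwpw2 followed the same order. It had 0.666, 0.783 and 0.588 CPM in EV untreated libraries, from 20, 16 and 16 counts. EV auxin libraries had 4.05 and 4.23 CPM, from 71 and 102 counts. FL libraries had 2.24, 2.43 and 2.35 CPM, and H373R libraries 2.71, 3.58 and 2.88 CPM.
The 4 groups did not overlap, although the highest FL library and the lowest H373R library were close. Group means were 0.679 ± 0.0984, 4.14 ± 0.131, 2.34 ± 0.0938 and 3.06 ± 0.463 CPM (SD, n = 3, 2, 3 and 3) in EV untreated, EV auxin, FL and H373R libraries. The log2 fold change of EV auxin over EV untreated was 2.62 ± 0.19 (SE), or 6.15-fold. FL lay 0.83 ± 0.16 and H373R 0.45 ± 0.14 log2 units below EV auxin, and H373R exceeded FL by 0.39 ± 0.15. Both remained above EV untreated, FL by 1.79 ± 0.20 and H373R by 2.17 ± 0.18. Without EV untreated replicate 1 the differences of EV auxin, FL and H373R from EV untreated were 2.60, 1.78 and 2.16.

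Slco5a1 was expressed in all groups, and the description as a near on-off switch does not hold for it. EV untreated libraries had 5.66, 7.78 and 8.52 CPM, from 170, 159 and 232 counts. EV auxin libraries had 17.2 and 19.7 CPM, from 302 and 474 counts. FL libraries had 8.21, 8.28 and 8.06 CPM, and H373R libraries 15.1, 13.2 and 11.5 CPM.
The FL libraries lay inside the range of the untreated ones, the only overlap between groups for any of the 4 genes. The means were 7.32 ± 1.49, 18.4 ± 1.73, 8.18 ± 0.113 and 13.3 ± 1.80 CPM (SD, n = 3, 2, 3 and 3) in EV untreated, EV auxin, FL and H373R libraries. EV auxin exceeded EV untreated by 1.35 ± 0.14 (SE) on the log2 scale, or 2.55-fold. FL lay 1.18 ± 0.15 and H373R 0.48 ± 0.14 log2 units below EV auxin. H373R exceeded FL by 0.70 ± 0.14, and EV untreated by 0.87 ± 0.13, while FL lay 0.17 ± 0.15 above EV untreated. Without EV untreated replicate 1, EV auxin exceeded EV untreated by 1.17 and H373R by 0.68, and the difference of FL from EV untreated was -0.0039, so the FL value rests on that library.

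**Figure D1:**
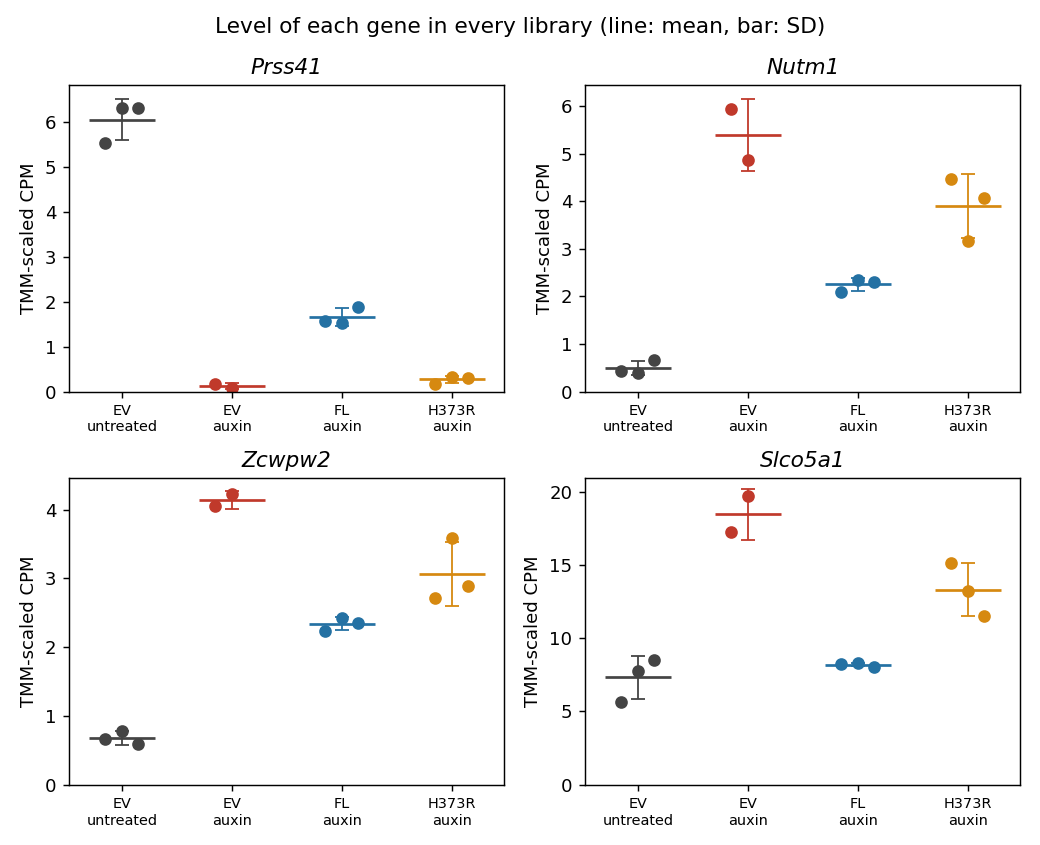
TMM-scaled CPM (linear axes from 0) of each gene in every library of the 4 groups, with points for libraries, a line for the group mean and a bar for the SD. Prss41 was highest in EV untreated libraries (5.53 to 6.32 CPM) and the other 3 genes were highest in EV auxin libraries.

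Set against all tested genes, the 4 differences between EV auxin and EV untreated were of unequal size. Ordered by the size of the fitted log2 fold change among the 16420 tested genes, Prss41 was number 3, Nutm1 number 18, Zcwpw2 number 45 and Slco5a1 number 312. By direction, Prss41 was number 3 from the bottom, and Nutm1, Zcwpw2 and Slco5a1 were numbers 2, 11 and 123 from the top. A fitted change of at least 8-fold was found in 31 tested genes (0.189%), which include Prss41 and Nutm1. A change of at least 2-fold was found in 697 genes (4.24%), which include all 4.
The libraries of EV auxin and EV untreated did not overlap for 4 of the 4 genes and for 44.9% of all tested genes. In the other comparisons the counts were 4 of 4 for FL against EV auxin (53.9% of all tested genes), 4 of 4 for H373R against EV auxin (57%) and 4 of 4 for H373R against FL (28.8%). They were 3 of 4 for FL against EV untreated (43.4%) and 4 of 4 for H373R against EV untreated (51%). Since these levels chose the genes, nothing is read from the counts.

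The return toward the untreated level differed between the genes and between the 2 forms of CTCF. It was expressed for each library as a return fraction, which is 0 at the EV auxin mean and 1 at the EV untreated mean, on the scale of log2 CPM with a prior count of 2. In FL libraries Slco5a1 reached 0.866 ± 0.0147 (SD, n = 3), Prss41 0.626 ± 0.0328, Nutm1 0.377 ± 0.0256 and Zcwpw2 0.325 ± 0.0226.
The FL values thus ran in the order Slco5a1, Prss41, Nutm1, Zcwpw2, and the ranges of the genes did not overlap (Nutm1 0.357 to 0.406, Zcwpw2 0.303 to 0.348). In H373R libraries Slco5a1 reached 0.355 ± 0.145, Zcwpw2 0.176 ± 0.0834, Prss41 0.150 ± 0.0767 and Nutm1 0.143 ± 0.0780. The H373R ranges of Prss41 (0.0623 to 0.203), Nutm1 (0.0794 to 0.230) and Zcwpw2 (0.0823 to 0.241) overlapped, and Slco5a1 (0.209 to 0.50) overlapped with Nutm1 and Zcwpw2. For each gene, all 3 FL libraries lay above all 3 H373R libraries, a pattern that the choice of the genes favoured. Libraries of these 2 groups did not overlap in CPM for 28.8% of all tested genes. The H373R fraction of Prss41 rests on few counts: it was 0.199 without EV auxin replicate 1, 0.0950 without EV auxin replicate 2 and 0.194 without H373R replicate 1. Without EV untreated replicate 1 the FL fractions of Prss41, Nutm1 and Zcwpw2 were 0.618, 0.385 and 0.326, and their H373R fractions 0.148, 0.146 and 0.177.

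The order of the genes rests on the scale. On linear CPM, a scale chosen after seeing the data, FL libraries had returned by 92.3% for Slco5a1, 64.2% for Nutm1, 52.0% for Zcwpw2 and 25.9% for Prss41, which moves Prss41 from the second place to the last. H373R libraries had returned by 46.3%, 30.4%, 31.2% and 2.41% on that scale. On both scales Slco5a1 was nearest to its untreated level. Its FL fraction was 0.994 without EV untreated replicate 1, and 0.833 and 0.796 without replicates 2 and 3 of that group. Its H373R fraction was 0.407 without EV untreated replicate 1.

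**Figure D2:**
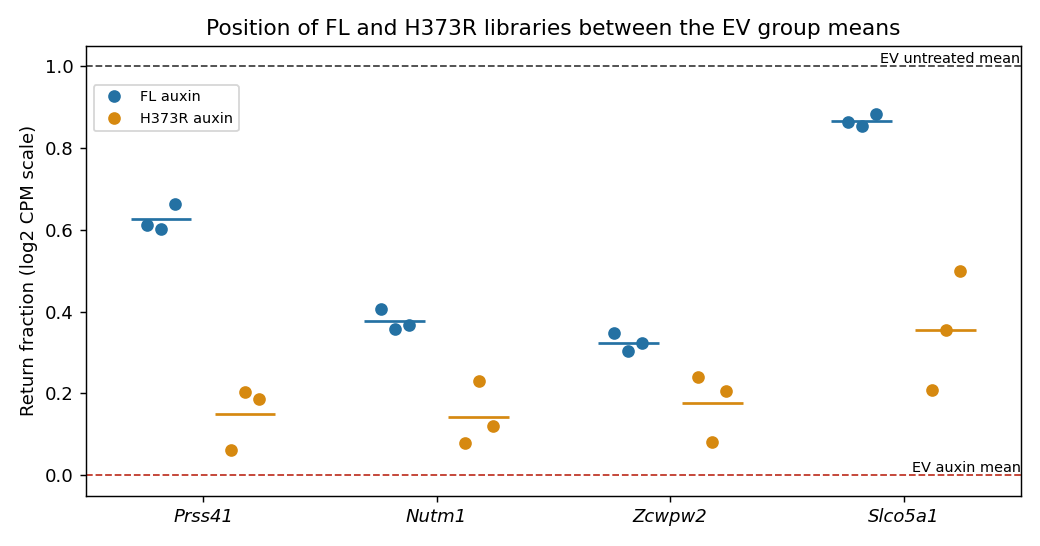
Return fraction of each FL (blue) and H373R (orange) library for the 4 genes, where 0 is the EV auxin mean and 1 the EV untreated mean on the log2 CPM scale; points are libraries and lines are means of 3. FL lay between 0.303 and 0.883 and H373R between 0.0623 and 0.50, with FL above H373R within each gene. The choice of the genes favoured this, and FL and H373R libraries did not overlap in CPM for 28.8% of all tested genes.

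In TPM, which uses 1 length per gene for all its transcripts, the 4 genes changed places. The order of different genes, here and below, rests on the length used. In GENCODE M21 the joined exons of Slco5a1 cover 13137 bases over 8 transcripts, and those of Prss41 cover 2642 bases. In EV untreated libraries Prss41 was highest at 8.61 ± 0.675 TPM (SD, n = 3), followed by Slco5a1 at 2.10 ± 0.437. Zcwpw2 (0.697 ± 0.0942 TPM) and Nutm1 (0.50 ± 0.152 TPM) came last, with overlapping libraries. In EV auxin libraries Nutm1 (5.52 ± 0.674 TPM, n = 2) and Slco5a1 (5.38 ± 0.607) overlapped at the top, Zcwpw2 had 4.33 ± 0.219 and Prss41 had 0.183 ± 0.0867 TPM.
In FL libraries all 4 genes met within a narrow band, with means of 2.34 ± 0.0848 (Zcwpw2), 2.30 ± 0.302 (Prss41), 2.28 ± 0.00685 (Slco5a1) and 2.20 ± 0.127 TPM (Nutm1). The single FL libraries ran from 2.06 to 2.64 TPM, and no gene differed from the next beyond this spread. In H373R libraries Nutm1 (3.90 ± 0.689 TPM), Slco5a1 (3.77 ± 0.514) and Zcwpw2 (3.12 ± 0.456) overlapped, and Prss41 had 0.381 ± 0.120 TPM.

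In mean level all 4 genes ran from EV untreated through FL and H373R to EV auxin, as their choice required. The same order was found in 276 of the 560 genes that were past an edgeR adjusted p of 0.05 and changed at least 2-fold between EV auxin and EV untreated (49.3%). It held for 118 of 279 such genes that were higher in EV auxin (42.3%) and for 158 of 281 that were lower (56.2%).

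Across the 11 libraries, which share cell line and treatment groups, log2 CPM of Nutm1 and Zcwpw2 ran together (Pearson r = 0.96). Slco5a1 had r = 0.82 with Nutm1 and 0.78 with Zcwpw2. Prss41 ran opposite to Nutm1 (r = -0.94), Slco5a1 (r = -0.92) and Zcwpw2 (r = -0.92). These values describe mainly the differences between 4 groups and carry no p.

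The tested genes most like each of the 4 were picked by the highest Pearson r of log2 CPM over the same 11 libraries. That they repeat the shape of their gene follows from this choice. For Prss41 they were Tspan6, a tetraspanin (r = 0.994), Cdkn2aipnl (0.993) and Plpp5, a lipid phosphatase (0.993). Tspan6 had 15.5 CPM in EV untreated, 2.89 in EV auxin, 8.47 in FL and 3.66 in H373R libraries.
Tspan6 thus kept a measurable level in EV auxin libraries, where Prss41 had nearly none. For Nutm1 they were Atp8b5, a testis phospholipid flippase (r = 0.986), 9530077C05Rik (0.983) and 4933412E12Rik (0.983). Atp8b5 had 0.835, 3.11, 1.88 and 2.64 CPM in EV untreated, EV auxin, FL and H373R libraries. For Zcwpw2 they were Mmaa, a mitochondrial protein of vitamin B12 metabolism (r = 0.988), Igfbp3, a binding protein of insulin-like growth factors (0.986), and Mapt, the microtubule protein tau (0.983).
Mmaa had 14.1, 27.2, 22.5 and 25.9 CPM in the same order of groups, a smaller range than that of Zcwpw2. For Slco5a1 the values of likeness were lower after the first gene, with Nptn, a neuroplastin of the immunoglobulin superfamily (r = 0.981), Nrp2, a semaphorin receptor (0.960), and Specc1 (0.957). Nptn had 72.9, 96.2, 75.1 and 85.7 CPM. Nrp2 had 55.6, 97.0, 60.5 and 78.2 CPM, with an FL level close to the untreated one, a shape its choice favoured.

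**Figure D3:**
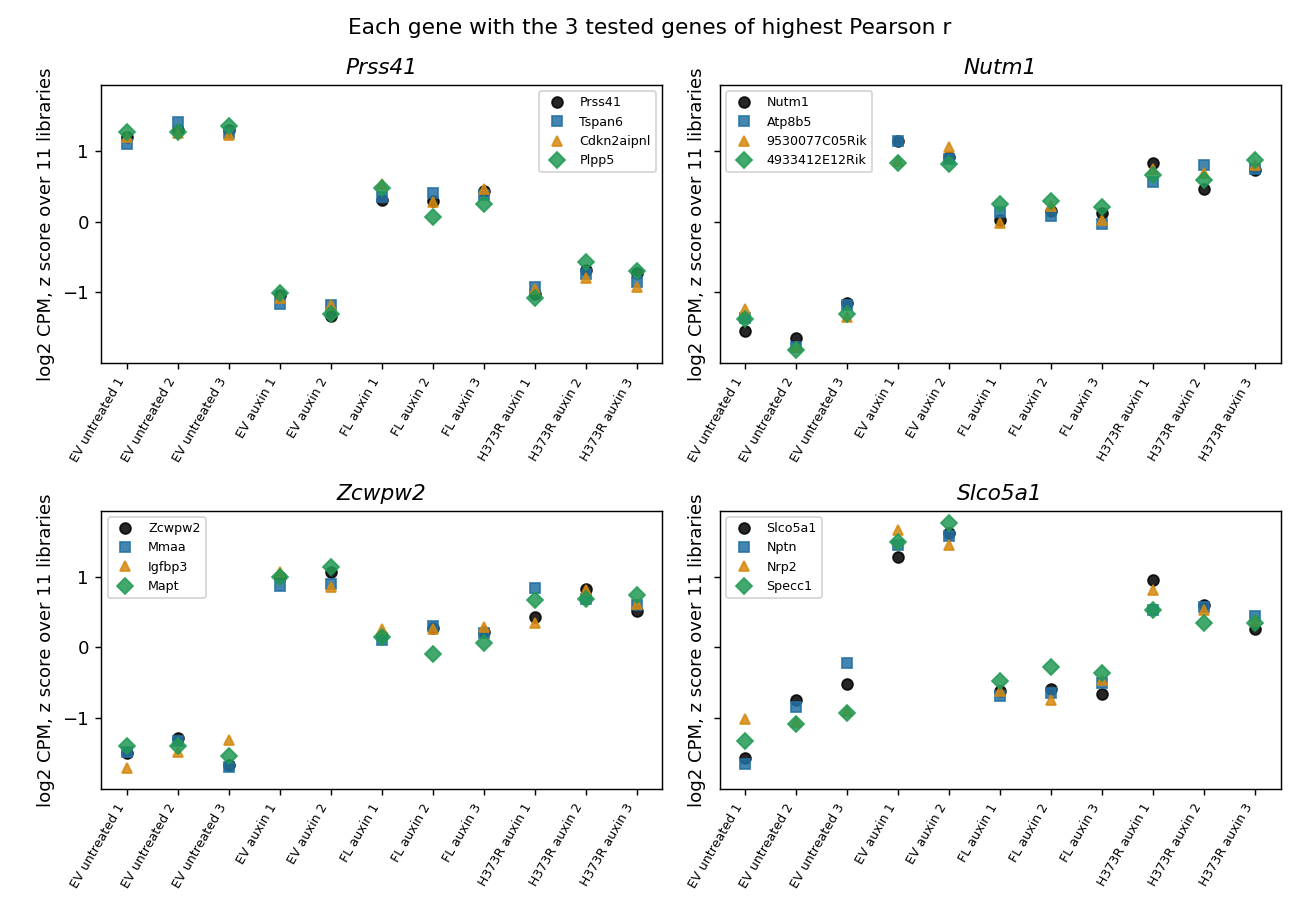
Log2 CPM of each gene and of the 3 tested genes with the highest Pearson r to it, each scaled to mean 0 and SD 1 over the 11 libraries named on the horizontal axis. Genes like Prss41 peak in EV untreated libraries, genes like Nutm1 and Zcwpw2 are lowest there, and genes like Slco5a1 are low in both EV untreated and FL libraries.

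The genes next to the 4 on their chromosomes were not used to choose them and could be tested. The 5 nearest tested genes on each side were taken from the RefSeq gene order, 40 in all, at gaps of 0 to 2941 kb. A gene was called where its p in edgeR's quasi-likelihood test, adjusted by Benjamini-Hochberg over all 16420 tested genes, was under 0.05. Between EV auxin and EV untreated, 10 of the 40 neighbours were called (25%), 3 higher and 7 lower, beside 20.7% of all tested genes. Their median log2 fold change was -0.093, and 0.0087 over all tested genes. The count was 16 without EV untreated replicate 1, 6 without EV auxin replicate 1 and 4 without EV auxin replicate 2. The called neighbours changed by less than the gene beside them.

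Around Prss41, 1 of 10 neighbours was called (10%, beside 20.7% of all tested genes). Srrm2, a scaffold of nuclear speckles 12 kb away, fell from 596 ± 14.1 to 472 ± 2.09 CPM (SD, n = 3 and 2; log2 fold change -0.34 ± 0.064, SE; edgeR adjusted p = 0.00148). Elob, the nearest tested gene at 7.68 kb and a subunit of the elongin complex, had a log2 fold change of -0.17 ± 0.12 (edgeR adjusted p = 0.361).

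Around Nutm1, 3 of 10 were called (30%, beside 20.7% of all tested genes). Lpcat4, a lysophospholipid acyltransferase only 0.837 kb away, fell by 0.27 ± 0.092 on the log2 scale (24.1 ± 2.45 to 20.1 ± 0.0870 CPM; edgeR adjusted p = 0.0494). Emc4, of the endoplasmic reticulum membrane complex and 104 kb away, rose by 0.28 ± 0.074 (edgeR adjusted p = 0.0130). Ano3, an anoctamin 1298 kb away, fell by 1.46 ± 0.34, from 2.14 ± 0.681 to 0.804 ± 0.315 CPM (edgeR adjusted p = 0.00593).
All 3 calls were lost without EV auxin replicate 2, at edgeR adjusted p of 0.216 (Lpcat4), 0.0658 (Emc4) and 0.153 (Ano3), where those of all alternatives ran from 0.0169, 0.00159 and 1.12e-06 up to 0.216, 0.123 and 0.153. Emc4 was also lost without EV auxin replicate 1 (0.123) and EV untreated replicate 2 (0.0518), and Lpcat4 in 13 of 20 alternatives. Among those 13 were the fits without EV auxin replicate 1 (0.182), EV untreated replicates 1 and 3 (0.0546 and 0.0821), FL replicates 2 and 3 (0.0552 and 0.0629) and H373R replicates 1 and 2 (0.0557 and 0.0610), all by edgeR adjusted p. Nop10, a small ribonucleoprotein component 2.63 kb away on the other side of Nutm1, had a log2 fold change of -0.19 ± 0.064 (edgeR adjusted p = 0.0502).

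Around Zcwpw2, 1 of 10 was called (10%, beside 20.7% of all tested genes). Azi2, an adaptor of the TBK1 kinase whose RefSeq span overlaps that of Zcwpw2 at their starts, had 47.9 ± 4.03 CPM in EV untreated and 51.3 ± 3.45 in EV auxin libraries (log2 fold change 0.10 ± 0.076; edgeR adjusted p = 0.384). Cmc1, a mitochondrial assembly factor 23.1 kb away, fell from 19.1 ± 0.573 to 15.0 ± 0.376 CPM (log2 fold change -0.35 ± 0.079; edgeR adjusted p = 0.00453). Without EV auxin replicate 2 its edgeR adjusted p was 0.0653, the highest of its 20 alternatives, with 0.00119 the lowest.

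Around Slco5a1, 5 of 10 were called (50%, beside 20.7% of all tested genes). With 10 genes at each locus, nothing is read from the differences between the loci. Tram1, a protein of the translocation channel 572 kb away, fell from 106 ± 10.4 to 65.1 ± 2.64 CPM (log2 fold change -0.70 ± 0.078; edgeR adjusted p = 1.03e-05). Cspp1, a centrosomal protein 2730 kb away, fell by 0.65 ± 0.080 on the log2 scale (edgeR adjusted p = 3.23e-05). Prdm14, a regulator of pluripotency 121 kb away, fell from 44.7 ± 1.47 to 33.7 ± 0.688 CPM (log2 fold change -0.41 ± 0.060; edgeR adjusted p = 0.00017).
These 3 calls held in all 20 alternatives. The other 2, named after their values were seen, were Ncoa2, a nuclear receptor coactivator (0.22 ± 0.064; edgeR adjusted p = 0.0247), and Eya1, a developmental phosphatase (0.58 ± 0.18; edgeR adjusted p = 0.0311), both higher in EV auxin. Sulf1, an extracellular sulfatase and the nearest tested gene at 5.36 kb, had a log2 fold change of -0.089 ± 0.065 (edgeR adjusted p = 0.374).

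**Figure D4:**
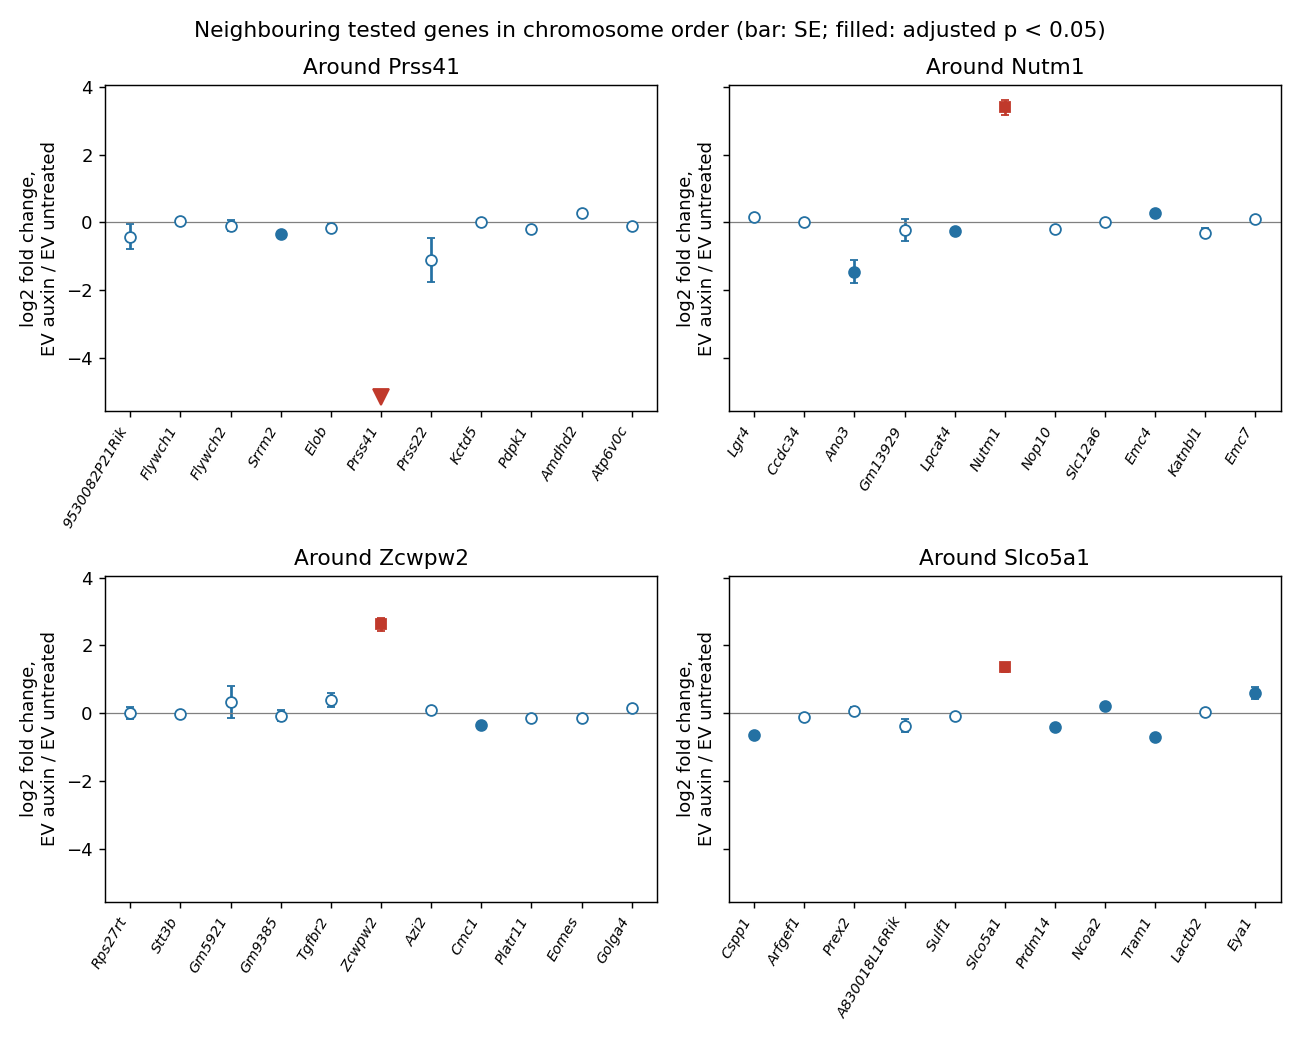
Log2 fold change of EV auxin over EV untreated for the 5 nearest tested genes on each side of the 4 genes, in chromosome order; bars are SE, filled blue circles had an edgeR adjusted p under 0.05 and open circles did not. Red marks the 4 genes themselves, which were not tested, and the triangle places Prss41 at 3 counts in the shallower EV auxin library; 10 of 40 neighbours are filled, each nearer to 0 than the gene it flanks.

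With FL CTCF put back, 7 of the 40 neighbours were called against EV auxin (17.5%, beside 24.5% of all tested genes), 3 higher and 4 lower. The count was 12 without EV untreated replicate 1, 4 without FL replicate 1 and 3 without EV auxin replicate 2. Tram1 rose to 99.9 ± 6.42 CPM in FL libraries (log2 fold change 0.62 ± 0.078 over EV auxin; edgeR adjusted p = 6.63e-05). Prdm14 stood at 35.5 ± 0.495 CPM, 0.072 ± 0.062 log2 units above EV auxin (edgeR adjusted p = 0.434), and Srrm2 at 442 ± 19.3 CPM, 0.095 ± 0.063 below it (edgeR adjusted p = 0.303).

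With H373R CTCF, 14 of 40 neighbours were called against EV auxin (35%, beside 21.7%), 5 higher and 9 lower, and 6, 5 and 7 without EV auxin replicate 1, EV auxin replicate 2 and H373R replicate 3. Against FL, 3 of 40 were called (7.5%, beside 5.96%), all lower in H373R. All were among the neighbours of Slco5a1, at gaps of 5.36 kb (Sulf1), 572 kb (Tram1) and 2730 kb (Cspp1). Of these, Tram1 had 79.5 ± 1.60 CPM in H373R libraries, 0.33 ± 0.068 log2 units below FL (edgeR adjusted p = 0.00914), and Cspp1 lay 0.36 ± 0.075 below FL (edgeR adjusted p = 0.00977). Sulf1, named after its values were seen, lay 0.23 ± 0.059 below FL (edgeR adjusted p = 0.0336).
This count was 6 without EV untreated replicate 1 and 0 without FL replicate 2, where the edgeR adjusted p of Tram1 was 0.0549 (range over alternatives 1.90e-05 to 0.0754) and that of Cspp1 0.0554 (9.19e-05 to 0.103). Against EV untreated, 17 of 40 neighbours were called for FL (42.5%, beside 36.9%), 5 higher and 12 lower, and 22 for H373R (55%, beside 44.4%), 6 higher and 16 lower.

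Relatives and partners of the 4 genes were followed through 6 lists, chosen by function. Of the 86 tested genes in them, 18 were called between EV auxin and EV untreated (20.9%, beside 20.7% of all tested genes), 11 higher and 7 lower, and 8 without EV auxin replicate 2. Their median log2 fold change was 0.083, beside 0.0087 over all tested genes. The largest fitted change among them, that of the protease gene Prss22 (-1.11 ± 0.66; edgeR adjusted p = 0.266), was smaller than those of Prss41, Nutm1 and Zcwpw2 and named after its value was seen.

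Of 38 serine protease genes of the Prss family and the tryptases, 17 had at most 3 counts in every library and 13 could be tested. Between EV auxin and EV untreated 3 of the 13 were called (23.1%, beside 20.7% of all tested genes), 1 higher and 2 lower. Prss36 fell from 11.3 ± 1.14 to 7.47 ± 0.883 CPM (log2 fold change -0.61 ± 0.12; edgeR adjusted p = 0.00201). Prss50, a testis protease also known as TSP50, fell from 6.21 ± 1.23 to 3.75 ± 0.387 CPM (-0.73 ± 0.19; edgeR adjusted p = 0.0115).
Prss8, the epithelial protease prostasin, rose from 2.64 ± 0.329 to 4.07 ± 0.520 CPM (0.63 ± 0.16; edgeR adjusted p = 0.0122). All 3 calls were lost without EV auxin replicate 2, at edgeR adjusted p of 0.0693, 0.0617 and 0.229, and Prss50 also without EV auxin replicate 1 (0.105). Over all alternatives these p ran from 2.28e-05 to 0.0693 for Prss36, 3.51e-05 to 0.105 for Prss50 and 0.00269 to 0.229 for Prss8. The list had 2 calls in FL against EV auxin (15.4%, beside 24.5% of all tested genes), both higher. These were Prss23, named after its values were seen and not followed through the alternatives, and Prss36 (edgeR adjusted p = 0.0378). That of Prss36 was lost in 7 of 20 alternatives (0.00640 to 0.325), among them those without EV auxin replicates 1 and 2 (0.0511 and 0.325) and FL replicates 1 and 3 (0.154 and 0.0665).

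The list of NUT partners and targets, which holds its acetyltransferase partners and genes linked to NUT carcinoma, had 5 calls among 18 tested genes (27.8%, beside 20.7% of all tested genes), 4 higher and 1 lower. Myc, a growth regulator active in NUT carcinoma, rose from 19.0 ± 1.57 to 29.0 ± 0.0780 CPM (0.61 ± 0.080; edgeR adjusted p = 5.57e-05) and this call held in all 20 alternatives. Zfp592 rose by 0.35 ± 0.075 (edgeR adjusted p = 0.00355), and Sox2, a pluripotency factor, fell by 0.20 ± 0.047 (edgeR adjusted p = 0.00538).
Without EV auxin replicate 2 the edgeR adjusted p was 0.129 for Zfp592 and 0.0706 for Sox2, the highest of their alternatives, whose lowest were 0.000174 and 0.000168. The other 2 called genes, named after their values were seen, were Zfp532 (0.23 ± 0.062; edgeR adjusted p = 0.0157) and Cic (0.27 ± 0.078; edgeR adjusted p = 0.0244). Ep300, which encodes p300, had 191 ± 7.67 CPM in EV untreated and 201 ± 0.524 CPM in EV auxin libraries (edgeR adjusted p = 0.445). In FL libraries Myc stayed at 28.6 ± 0.569 CPM (edgeR adjusted p = 0.88 against EV auxin), and in H373R libraries it had 22.8 ± 1.47 CPM, 0.34 ± 0.079 log2 units below EV auxin (edgeR adjusted p = 0.00632). That last call was lost without EV auxin replicate 1 or 2, at edgeR adjusted p of 0.0564 and 0.0605 (lowest over alternatives 0.000124).

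Zcwpw2 belongs to the CW domain readers, and 4 of the other 7 were called (57.1%, beside 20.7% of all tested genes), 3 higher and 1 lower. Morc1, a germ cell ATPase that silences transposons, fell from 76.7 ± 6.40 to 51.6 ± 2.22 CPM (-0.57 ± 0.072; edgeR adjusted p = 4.13e-05). Kdm1b, a histone demethylase of the oocyte, rose from 33.8 ± 1.52 to 42.5 ± 0.433 CPM (0.33 ± 0.071; edgeR adjusted p = 0.00344), and Morc4 rose by 0.42 ± 0.093 (edgeR adjusted p = 0.00471).
The fourth, Morc2a, was named after its values were seen (0.18 ± 0.052; edgeR adjusted p = 0.0214). Zcwpw1, the paralogue of Zcwpw2 that binds marks set by the meiotic factor Prdm9, had 64.9 ± 2.98 and 64.6 ± 1.37 CPM in EV untreated and EV auxin libraries (-0.0054 ± 0.061; edgeR adjusted p = 0.965). With FL CTCF put back, Kdm1b fell to 31.6 ± 1.34 CPM (-0.43 ± 0.072 against EV auxin; edgeR adjusted p = 0.000617), while Morc1 was at 45.2 ± 1.90 CPM (-0.19 ± 0.074; edgeR adjusted p = 0.0718). With H373R CTCF, Kdm1b had 31.7 ± 2.14 CPM (-0.42 ± 0.071 against EV auxin; edgeR adjusted p = 0.000825).

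Of 31 tested genes of meiotic recombination and the synaptonemal complex, 3 rose between EV auxin and EV untreated (9.68%, beside 20.7% of all tested genes) and 0 fell. Syce1, of the central element of the synaptonemal complex, rose from 50.7 ± 1.75 to 73.3 ± 5.23 CPM (0.53 ± 0.059; edgeR adjusted p = 1.12e-05) and stood at 56.1 ± 0.430 CPM in FL libraries (-0.39 ± 0.060 against EV auxin; edgeR adjusted p = 0.000351). Mei4, needed for meiotic DNA breaks, rose from 8.24 ± 0.990 to 14.0 ± 1.62 CPM (0.76 ± 0.11; edgeR adjusted p = 0.000125) and remained at 15.5 ± 0.246 in FL and 15.7 ± 1.02 CPM in H373R libraries.
Rad21l, a meiotic cohesin subunit of low level, rose from 0.569 ± 0.188 to 1.18 ± 0.0250 CPM (0.99 ± 0.30; edgeR adjusted p = 0.0284). Its call was lost in 7 of 19 alternatives, among them those without EV auxin replicate 1 or 2 and without EV untreated replicate 2 or 3 (edgeR adjusted p of 0.12, 0.161, 0.0804 and 0.0741), in a range of 0.00614 to 0.161. Prdm9 itself had 0.657 ± 0.110 and 0.801 ± 0.0765 CPM (edgeR adjusted p = 0.557).

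Of the other 14 organic anion transporter genes in the table, 9 had at most 3 counts in every library and 4 could be tested, so most of this family had next to no RNA here. From EV untreated to EV auxin 2 of the 4 fell (50%, beside 20.7% of all tested genes), in the opposite direction to Slco5a1. Slco3a1 fell from 4.34 ± 0.0726 to 2.30 ± 0.746 CPM (-0.88 ± 0.19; edgeR adjusted p = 0.00339). Slco4a1 fell from 8.07 ± 1.55 to 5.88 ± 0.660 CPM (-0.46 ± 0.15; edgeR adjusted p = 0.0405).
Without EV auxin replicate 1 the edgeR adjusted p of Slco3a1 was 0.0596 (range over alternatives 1.66e-05 to 0.0596), and Slco4a1 lost its call in 10 of 20 alternatives (0.00704 to 0.258). Its edgeR adjusted p was 0.258 and 0.0943 without EV auxin replicates 1 and 2, 0.0814 without EV untreated replicate 1, 0.0510 without FL replicate 2, and 0.0507 and 0.0532 without H373R replicates 1 and 2. In FL against EV auxin all 4 were called (beside 24.5% of all tested genes), 3 higher and 1 lower. Slco3a1 (edgeR adjusted p = 0.0416) lost that call in 8 of 20 alternatives (0.0145 to 0.314), which include DESeq2 (0.0539), the fit with a replicate block (0.0804) and those without EV auxin replicate 1 (0.314) and FL replicates 1 and 3 (0.0810 and 0.138). Slco4a1 (edgeR adjusted p = 0.0179) lost it in 4 of 20 (0.000568 to 0.145), which include those without EV auxin replicates 1 and 2 (0.145 and 0.0526) and FL replicate 1 (0.0775). Slco2a1 and Slco4c1 were not followed through the alternatives in this comparison. Slco4c1 had 26.1, 28.7, 23.0 and 24.7 CPM in EV untreated, EV auxin, FL and H373R libraries.

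Among 13 genes of CTCF, its paralogue and the cohesin machinery, 1 was called between EV auxin and EV untreated (7.69%, beside 20.7% of all tested genes). Ctcfl, the germ cell paralogue of CTCF, fell from 3.05 ± 0.395 to 1.69 ± 0.0357 CPM (-0.86 ± 0.17; edgeR adjusted p = 0.00206), a call that held in all 20 alternatives. It had 1.56 ± 0.0630 CPM in FL and 1.80 ± 0.183 CPM in H373R libraries (edgeR adjusted p = 0.783 and 0.806 against EV auxin).
Over all 86 list genes, 26 were called in FL against EV auxin (8 higher and 18 lower; 30.2%, beside 24.5% of all tested genes). In H373R against EV auxin 23 were called (4 and 19; 26.7%, beside 21.7%), and in H373R against FL 7 (5 and 2; 8.14%, beside 5.96%). The first count was 9 without EV auxin replicate 1, 11 without EV auxin replicate 2 and 16 without FL replicate 1, and the second 11 and 12 without EV auxin replicates 1 and 2. The third was 12 without EV untreated replicate 1, and 2 to 4 without any 1 of the 3 FL libraries, H373R replicate 2 or H373R replicate 3. Against EV untreated, 36 were called in FL (16 and 20; 41.9%, beside 36.9%) and 51 in H373R (23 and 28; 59.3%, beside 44.4%).

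Because Prss41, Nutm1 and Zcwpw2 are known from germ cells, markers of that lineage were summed in each library. Of 10 germ cell markers, 6 could be tested, and the defining late markers Prm1 and Acrv1 had 0 counts in every library. The sum ran from 208 to 228 CPM in EV untreated, 294 to 310 in EV auxin, 240 to 257 in FL and 297 to 309 in H373R libraries, which is the direction of Nutm1 and Zcwpw2 and opposite to Prss41. In it, between EV untreated and EV auxin, Mael, a piRNA factor, rose from 48.2 to 87.2 CPM (0.85 ± 0.065; edgeR adjusted p = 1.74e-07), Stra8, the regulator of meiotic entry, from 71.9 to 101 CPM (0.49 ± 0.064; edgeR adjusted p = 5.21e-05) and Zp3, of the egg coat, from 3.31 to 5.67 CPM (0.79 ± 0.13; edgeR adjusted p = 0.000563).
Dazl, a germ cell RNA-binding protein, had 17.9 and 17.7 CPM (edgeR adjusted p = 0.986). Markers of the primitive endoderm, 7 of 7 tested, summed to 28.2 to 30.7 CPM in EV untreated, 31.2 to 31.7 in EV auxin, 101 to 110 in FL and 62.3 to 69.3 in H373R libraries. Their sum was thus highest in FL and lowest in EV untreated libraries. Fibroblast markers, 5 of 10 tested, summed to 67.4 to 75.9 CPM in EV untreated, 62.9 to 67.3 in EV auxin, 92.9 to 111 in FL and 81.1 to 88.8 in H373R libraries. Trophoblast markers, 6 of 8 tested, summed to 47.6 to 58.3, 67.0 to 73.5, 71.4 to 81.1 and 80.9 to 84.4 CPM in the same order. Over all libraries, neural markers summed to 208 to 272 CPM (4 of 6 tested). Those of the embryo at the 2-cell stage summed to 2.50 to 3.98 CPM (4 of 7). In such bulk samples, fewer cells of a type and less RNA per cell cannot be told apart, and the part of these cell types in the levels of the 4 genes was not tested.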

How the data were processed

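The authors deposited raw counts for each gene symbol, and TPM values (abundance scaled to length and depth) for the same 11 libraries. Per the submitters' processing notes, featureCounts, Subread 2.0.3, DESeq2 and the builds mm10 and GRCm38 were used. The annotation, trimming and strand setting are not given in the sources used here, although the library kit keeps strand per the labels' protocols. Counts and TPM carry the same reads: count over TPM gave 1 length per gene (largest relative difference 6.77e-15 over 11343 genes). No column belonged to other samples.

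Libraries were grouped by title. Counts were fitted with edgeR 4.0.16 in R 4.3.3 (TMM scaling, filterByExpr by group, group means over all 11 libraries, quasi-likelihood F test, Benjamini-Hochberg adjustment over 16420 genes, threshold 0.05). A total of 13465241 to 29902246 counts per library sets the precision, and intervals cover counting error only. In simulated counts of EV auxin against EV untreated over 16420 genes, edgeR found 85% of 100 genes changed 2-fold and 96% of 100 changed 8-fold, with 9 false calls. Those counts were drawn from the kind of model that edgeR fits, with no library standing apart. The rates therefore do not measure how reliable the calls in the real libraries are.

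The 4 genes, the lists and the rules were chosen with earlier results of these data known. Besides the 4 genes, the text names up to 3 called neighbours per gene and up to 3 called genes per list with the smallest adjusted p in EV auxin against EV untreated, and the 3 genes most like each by Pearson r of log2 CPM (prior count 2), among tested genes whose mean log2 CPM was not under 0. The ratios of Prss41 to EV auxin use exact intervals, and its alternatives were computed against 3 counts in the shallower EV auxin library. Alternatives were RLE scaling, DESeq2 1.42.0, other filters on low counts, a fit of the compared libraries alone, a block for the replicate number, limma 3.58.1 on log2(TPM + 1) or log2(TPM + 0.1), stricter thresholds, 10 neighbours on each side, other scales of the return fraction, and leaving out each library.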

Additional observations from a re-analysis of the deposited data

How the results depend on the processing

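Of the differences of the 4 genes in the 6 comparisons, 1 changed direction in an alternative: Slco5a1 in FL over EV untreated was -0.0039 without EV untreated replicate 1, and 0.17 with it. RLE scaling, DESeq2 and other filters on low counts moved none of their differences by more than the spread (Prss41 and Nutm1 dropped out at 10 counts in every library). A pseudocount shrinks differences of low genes by construction. In limma on log2(TPM + 1), with or without a filter, EV auxin over EV untreated was -2.95 for Prss41, 2.12 for Nutm1, 1.65 for Zcwpw2 and 1.05 for Slco5a1; FL over EV auxin was 1.40, -1.02, -0.68 and -0.96; H373R over FL was -1.26 for Prss41, 0.60 for Nutm1 and 0.54 for Slco5a1; and H373R over EV auxin was 0.15 for Prss41. On log2(TPM + 0.1), EV auxin over EV untreated was -4.66 for Prss41 and 2.48 for Zcwpw2, and FL over EV auxin 2.79 for Prss41. These compare with -5.14, 3.28 and 0.66 for Prss41 set against 3 counts in the shallower EV auxin library. Leaving out single libraries gave -5.60 to -5.11, 3.18 to 3.74 and 0.50 to 1.12 for these 3 values, and -1.27 to -1.06 for Slco5a1 in FL over EV auxin.

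The FL return fraction on log2(TPM + 1) was 0.489 for Prss41, 0.482 for Nutm1, 0.409 for Zcwpw2 and 0.913 for Slco5a1, and the H373R fraction of Prss41 was 0.0732. On linear CPM, added after seeing the data, the FL fractions were 0.259, 0.642, 0.520 and 0.923, and the H373R fractions 0.0241 (Prss41), 0.304 (Nutm1) and 0.312 (Zcwpw2). Without single libraries, also added, FL ran from 0.348 to 0.403 for Nutm1 and from 0.796 to 0.994 for Slco5a1, and H373R from 0.0950 to 0.199 for Prss41, 0.0996 to 0.179 for Nutm1, 0.144 to 0.224 for Zcwpw2 and 0.282 to 0.427 for Slco5a1.

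The called neighbours numbered 20, 19, 25, 8, 35 and 46 of 80 with 10 on each side (EV auxin against EV untreated, FL and H373R against EV auxin, H373R against FL, FL and H373R against EV untreated), from more genes by construction. At an adjusted p under 0.01 the first 3 were 6, 4 and 7. Without a TPM filter limma called 6 in EV auxin against EV untreated, 7 in H373R against EV auxin and 0 in H373R against FL, where it called 1 with a filter at either pseudocount and edgeR 3. With only the libraries compared, FL against EV auxin had 11. Leaving out single libraries gave 4 to 16, 3 to 12, 5 to 16 and 0 to 6 for the first 4 comparisons. Of the list genes, 11, 12, 14, 2 and 32 were called at an adjusted p under 0.01 in the first 4 comparisons and in H373R against EV untreated. Limma without a filter called 4 in H373R against FL, only the libraries compared gave 39 in H373R against EV auxin, and single libraries left out gave 8 to 27, 9 to 38, 11 to 32 and 2 to 12 in the first 4. Where the number of genes, threshold or libraries does not account for these changes, the cause was not tested.

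Deviations of same-numbered libraries from their group means had r from -0.087 to 0.28 (median -0.016) over 15 pairs, 3 of them over 0.1. Libraries of other numbers had r from -0.20 to 0.13 (median 0.015) over 30 pairs, 1 of them over 0.1. The 2 EV auxin libraries deviate as mirror images by construction, so whether the numbers pair the libraries was not settled. With the replicate number as a block, FL over EV auxin was -0.77 for Zcwpw2, the called genes were 3197, 3978, 3532, 942, 6142 and 7436 in the order above, against 3392, 4016, 3570, 979, 6052 and 7292, and the other differences of the 4 genes moved by less than the spread. Of the calls between EV auxin and EV untreated followed there, that of Lpcat4 was lost (edgeR adjusted p = 0.0568). Prss41 against 3 counts has no value in that fit. Depth limits Prss41 most, with 2 and 3 counts in EV auxin libraries.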
